A study of Mus musculus with 9 samples.

Results

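Tumour cells grown with lung-resident macrophages were compared directly with the same tumour cells grown with bone-marrow monocytes. The comparison used 6 of the 9 libraries of the series, 3 for each co-culture, chosen by their labels, and all 12326 genes that passed a filter on low reads, of 12339 in the table. KP-GFP cells, mouse lung tumour cells of the C57BL/6 strain that carry green fluorescent protein, were seeded as spheroids of 2500 cells. In one group 5000 lung TRMs (tissue-resident macrophages, here alveolar macrophages) were mixed in, and in the other 5000 BM monocytes. After 7 days 32 spheroids per condition were pooled and dissociated, and the GFP-positive cells were sorted and sequenced. The RNA is thus meant to be that of the tumour cells, and markers of the added cells are described below. The remaining 3 libraries, tumour cells grown without added cells, give a reference level below and also enter the estimate of the spread between replicates, so they help decide which genes were called. The question set for the series was the direct effect of different macrophage populations on cancer cells.

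Several features limit these groups as a model. One tumour cell culture was used, at 1 time and 1 ratio of added to tumour cells, and the labels name neither its driver alleles nor the source animals of the added cells. The labels do not say that replicates were separate cultures, and the p-values therefore cover only how these libraries vary, which may be technical. Bulk RNA gives 1 value per gene and library, so fewer cells expressing a gene and less RNA per cell cannot be told apart.

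Alveolar macrophages settle in the lung early in life, renew themselves there and clear surfactant and particles, whereas bone-marrow monocytes circulate and become macrophages after they enter a tissue. Both kinds of cell release cytokines and growth factors and consume oxygen and nutrients, and both are found in lung tumours. Tumour cells low in oxygen stabilise the transcription factor HIF, which switches on glycolysis, glycogen handling, blood vessel growth factors and its own brake, the prolyl hydroxylases. Cells about to divide switch on the mitotic genes late in the cell cycle, many of them through a short promoter element called the cell cycle homology region (CHR).

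Depth was 16001895 to 25240220 recovered reads per TRM library and 18381707 to 24037053 per monocyte library. Values are the authors' normalised CPM, the reads of a gene scaled to a common library size with 0.5 read added. Differences are TRM minus monocyte on the log2 scale, and called means an adjusted p (Benjamini-Hochberg, limma) under 0.05. Monocyte replicate 3 stood apart: on the first principal component of the 6 co-culture libraries (39.1% of the variance) it lay at 89.1 and the other 5 lay between -41.2 and 9.83. It also had most genes without a read, 385 against 24 to 195 in the other 5. On the second component (24.7% of the variance) monocyte replicate 1 lay at -67.1 and the other 5 between -9.61 and 39.7. Several results, among them the number of calls, are given with and without monocyte replicate 3. Among the tumour cells' own genes, Cdh1 (E-cadherin) lay between 683 and 1512 in the 6 libraries, and Ptprc, the leukocyte antigen CD45, lay between 0.021 and 4.47. Nkx2-1, a lung lineage factor, was not analysed here. Trp53, the p53 tumour suppressor, was at 4.16, 3.15 and 2.99 with TRMs against 2.57, 1.36 and 4.61 with monocytes, so the groups overlapped.

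The co-cultures differed in 49 genes, 40 of them higher with TRMs (0.325% of the genes tested) and 9 lower with TRMs (0.073%), that is, higher with monocytes. At an unadjusted p under 0.05, 767 genes were higher with TRMs (6.22%) and 670 lower (5.44%). These shares are the background for the counts within gene lists below. The genes higher with TRMs held the oxygen sensor Egln1, the vessel growth factor Vegfa, enzymes of glycolysis and glycogen, the cytokine Il1a, the laminin chain gene Lama3 and the receptors Egfr and Ret. The genes higher with monocytes held 5 mitotic genes and the extracellular superoxide dismutase Sod3. In all 49 the 3 TRM values lay outside the range of the 3 monocyte values, as did 7.55% of all genes tested for values higher with TRMs and 8.62% for values lower. Folds ranged from 1.62 to 3.57 among the genes higher with TRMs and from 1.86 to 4.91 among those lower.

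**Figure D1:**
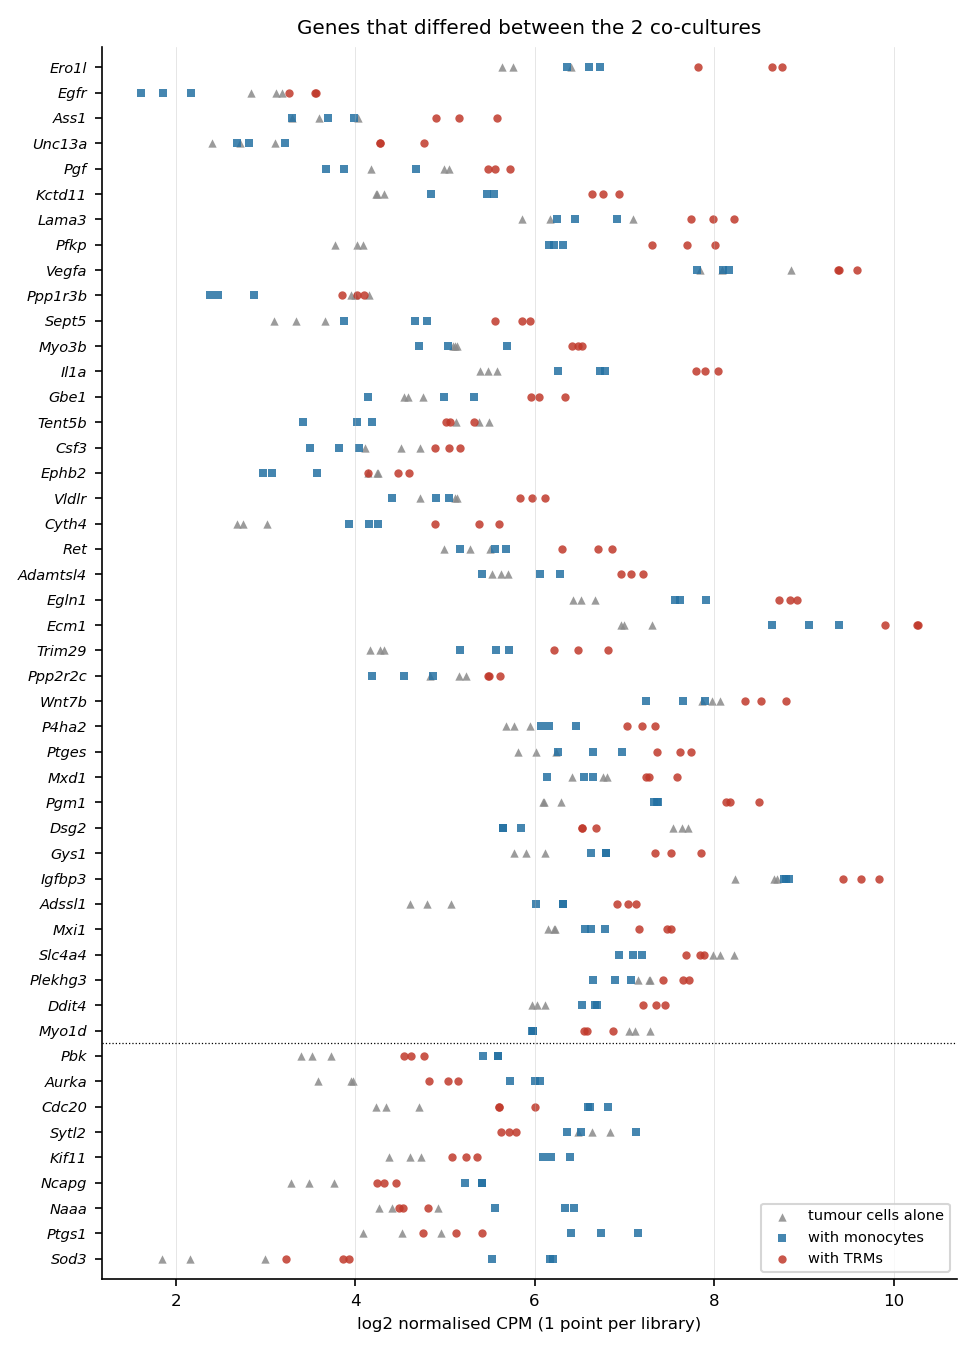
Log2 normalised CPM of 48 of the 49 called genes, 1 point per library: red circles with TRMs, blue squares with monocytes, grey triangles tumour cells alone. The 39 genes above the dotted line were higher with TRMs and the 9 below it lower, and in each row the red and blue points do not overlap.

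These calls rested on few libraries. Without TRM replicate 2 no gene was called (limma, smallest adjusted p = 0.0509), although all 49 kept their sign and an unadjusted p under 0.05, and 1173 of all genes had such a p. Without TRM replicate 1 the calls numbered 6 higher and 1 lower, without TRM replicate 3 they were 5 and 1, without monocyte replicate 1 they were 12 and 1, and without monocyte replicate 2 they were 7 and 0. Without monocyte replicate 3 the calls rose to 106 higher (0.86%) and 28 lower (0.227%), and 44 of the 49 were among them. Leaving out a library of tumour cells alone, which enters only through the shared spread, gave 23 and 4, 59 and 38, or 22 and 4. Il1a, Egln1, Pfkp and Kctd11 were called in 8 of these 9 fits. edgeR's quasi-likelihood test on the recovered reads called 34 higher and 10 lower, 42 of them among the 49. DESeq2 on the same reads called 194 higher and 135 lower, all 49 among them. Scaling by library totals gave 35 higher and 16 lower, so the share of higher calls moved from 81.6% to 68.6%.

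**Figure D2:**
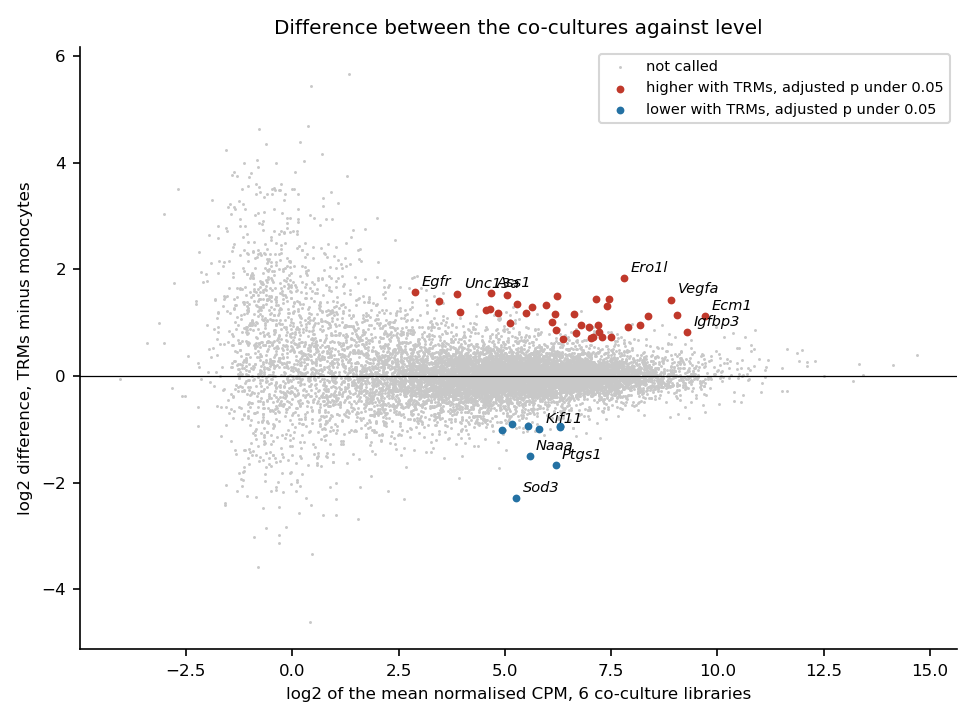
Log2 difference, TRMs minus monocytes, of each tested gene against the log2 of its mean level in the 6 co-culture libraries. Red points are the 40 genes called higher with TRMs and blue points the 9 called lower, and genes at low levels scatter widely without being called.

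To show the regulatory sequence beside these genes, promoters were taken from RefSeq (GRCm38.p6), from 250 bases before to 50 after the transcription start. Of the 49 called genes 35 matched an entry. The core of the hypoxia response element, to which HIF binds, is ACGTG, and it was searched on both strands. It was present in 8 of 29 promoters of genes higher with TRMs (27.6%) and in 25.5% of the 9891 promoters of tested genes, so its share was near the background. It was in 15 of 26 promoters of the hypoxia response list (57.7%). The 3 promoters shown first belong to oxygen-related genes that were higher with TRMs and hold the core, which is in capitals and reads CACGT where it lies on the opposite strand. Each stretch covers the 250 bases before the RefSeq start on the gene's own strand. The stretches are Egln1 at chr8:124949255-124949504 (minus strand), Ero1l at chr14:45318573-45318822 (minus strand) and P4ha2 at chr11:54100674-54100923 (plus strand).
Egln1: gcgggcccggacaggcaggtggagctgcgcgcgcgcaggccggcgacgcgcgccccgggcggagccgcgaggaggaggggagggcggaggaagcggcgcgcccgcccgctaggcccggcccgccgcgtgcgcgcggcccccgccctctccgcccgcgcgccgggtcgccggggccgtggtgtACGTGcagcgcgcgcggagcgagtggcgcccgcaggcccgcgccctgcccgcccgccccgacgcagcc
Ero1l: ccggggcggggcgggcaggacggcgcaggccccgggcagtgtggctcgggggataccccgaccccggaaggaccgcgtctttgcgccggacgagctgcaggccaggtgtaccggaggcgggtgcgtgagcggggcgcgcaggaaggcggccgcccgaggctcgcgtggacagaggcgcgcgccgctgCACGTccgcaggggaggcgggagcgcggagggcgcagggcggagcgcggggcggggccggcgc
P4ha2: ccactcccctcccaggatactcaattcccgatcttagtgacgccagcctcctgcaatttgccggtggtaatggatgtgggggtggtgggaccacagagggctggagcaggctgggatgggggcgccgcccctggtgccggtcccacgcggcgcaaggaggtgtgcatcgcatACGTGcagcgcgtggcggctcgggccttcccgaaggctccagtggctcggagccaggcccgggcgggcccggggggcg
The core begins 68 bases before the RefSeq start in Egln1, 63 in Ero1l and 78 in P4ha2, counted from its upstream end. Another annotation, GENCODE M21, places the upstream ends of these genes at 124949324, 45318771 and 54100095. In that annotation the marked cores lie inside all 3 genes, and the whole P4ha2 stretch lies inside its gene. Among the other oxygen-related genes higher with TRMs, Ddit4 held the core 187 bases before the start. The promoters of Vegfa and Mxi1 did not hold it in the stretch searched.

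For the genes higher with monocytes the CHR is the element of interest, searched as TTTGAA or TTCGAA on both strands. It was present in 5 of 6 promoters of genes lower with TRMs (83.3%), in 31 of 40 promoters of the G2/M and mitosis list (77.5%) and in 13.8% of all 9891. The CCAAT box, CCAAT on either strand, was in 5 of the same 6 promoters (83.3%), in 72.5% of the mitosis list and in 38.8% of all. An AP-1 site (TGANTCA) was in 13.8% of promoters of genes higher with TRMs, in none of the 6 and in 5.43% of all, and an E2F core (TTCCCGC or TTGGCGC) in 20.7%, 16.7% and 12.6%. Shown next, with the CHR in capitals (TTCAAA where it lies on the opposite strand), are 3 mitotic genes that were higher with monocytes: Kif11 at chr19:37376132-37376381 (plus strand), Ncapg at chr5:45669675-45669924 (plus strand) and Cdc20 at chr4:118437344-118437593 (minus strand).
Kif11: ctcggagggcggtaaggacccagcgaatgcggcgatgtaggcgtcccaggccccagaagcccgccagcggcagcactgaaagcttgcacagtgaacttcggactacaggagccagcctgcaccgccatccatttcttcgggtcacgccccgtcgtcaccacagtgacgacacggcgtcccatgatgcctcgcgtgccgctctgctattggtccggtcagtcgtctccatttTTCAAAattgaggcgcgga
Ncapg: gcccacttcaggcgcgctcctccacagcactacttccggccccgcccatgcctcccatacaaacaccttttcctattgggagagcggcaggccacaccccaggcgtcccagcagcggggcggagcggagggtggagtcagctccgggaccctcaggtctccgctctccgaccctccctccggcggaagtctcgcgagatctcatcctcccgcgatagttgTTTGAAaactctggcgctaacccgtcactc
Cdc20: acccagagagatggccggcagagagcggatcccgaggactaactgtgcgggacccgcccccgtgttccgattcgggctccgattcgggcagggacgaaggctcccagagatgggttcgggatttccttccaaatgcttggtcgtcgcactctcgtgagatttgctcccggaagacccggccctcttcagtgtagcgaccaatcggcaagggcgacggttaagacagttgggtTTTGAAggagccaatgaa
The CHR begins 19 bases before the start in Kif11, 30 in Ncapg and 18 in Cdc20. In Aurka it lay in the 50 bases after the start, and in Ptgs1, which is no mitotic gene, 228 bases before it. A match is a description of the letters and was not tested as a binding site.

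The 6 called genes of oxygen sensing and the hypoxia response were all higher with TRMs. Egln1 (PHD2, chromosome 8, 124908587 to 124949324, minus strand, GENCODE M21 on GRCm38), the oxygen-dependent enzyme that marks HIF for destruction, read 421, 458 and 486 in TRM replicates 1 to 3 and 240.3, 189 and 197 in monocyte replicates 1 to 3. All TRM values lay above all monocyte values, and both groups lay above tumour cells alone (86.2, 102 and 91.7). The means were 455 ± 32.5 and 209 ± 27.7 (SD, n = 3 each), a 2.19-fold difference (log2 1.13, SE 0.14, limma adjusted p = 0.00573).

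Ero1l, the endoplasmic reticulum oxidase that forms disulfide bonds, had the largest fold among the genes called higher with TRMs. It read 226, 399 and 431 with TRMs and 82.3, 106 and 97.2 with monocytes (3.57-fold, log2 1.84, SE 0.24, limma adjusted p = 0.00816). TRM replicate 1 was the lowest of the TRM libraries, and the monocyte values overlapped those of tumour cells alone (49.9, 84.8 and 54.3). Vegfa, the main growth factor of blood vessels, read 671, 769 and 665 with TRMs and 273, 287 and 224 with monocytes (2.70-fold, limma adjusted p = 0.0148). Its level alone spread from 229 to 465 and overlapped the monocyte values. P4ha2, a subunit of the prolyl hydroxylase that matures collagen, read 146, 163 and 130.3 with TRMs against 71.4, 67.1 and 88.2 with monocytes (1.94-fold, limma adjusted p = 0.021). Ddit4, an inhibitor of mTORC1, was 1.64-fold higher and the Myc antagonist Mxi1 1.65-fold higher with TRMs (limma adjusted p = 0.0363 and 0.0386). Of these 6 genes 2, 0 and 1 were called without TRM replicate 1, 2 and 3, and 2, 2 and 5 without monocyte replicate 1, 2 and 3.

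Of 31 members of the hypoxia response list, 6 were called higher with TRMs and 0 lower (limma, at an unadjusted p under 0.05 17 higher and 0 lower, in edgeR 6 and 0, and in DESeq2 11 and 0). Of all genes tested 0.325% were called higher and 0.073% lower, and 6.22% and 5.44% at an unadjusted p under 0.05 (limma). The median difference was 0.55, against -0.0003 over all genes tested. All TRM values lay above all monocyte values in 14 of the 31 members and in 7.55% of all genes tested. Other members missed the threshold with values that did not overlap. Bnip3, a mitophagy receptor, read 121, 169.8 and 174 with TRMs and 48.7, 71.4 and 80.7 with monocytes (limma adjusted p = 0.0689). Ankrd37, a small HIF target, read 21.2, 32.7 and 33.7 with TRMs against 8.62, 10.4 and 15.8 with monocytes (limma adjusted p = 0.0553), and Ndrg1 227, 328 and 239 with TRMs against 135, 185 and 154 with monocytes (limma adjusted p = 0.0771). Hif1a itself, the oxygen-regulated HIF subunit, read 397, 624 and 755 with TRMs against 383, 634 and 442 with monocytes, and Egln3, a second prolyl hydroxylase, 43.2, 79.8 and 60.9 with TRMs against 45.6, 45.1 and 30.9 with monocytes, so both overlapped. Summed over the list, the level was 4443, 5978 and 5774 with TRMs, 3402, 3910.5 and 3343 with monocytes and 2142, 2709 and 2282 alone. The lowest TRM sum, of replicate 1, lay above the highest monocyte sum. The called members numbered 0 without TRM replicate 2 and 9 without monocyte replicate 3, where Bnip3, Ankrd37, Higd1a and Selenbp1 were added and Mxi1 was lost (limma adjusted p = 0.0385, 0.0164, 0.0332, 0.0202 and 0.0539).

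**Figure D3:**
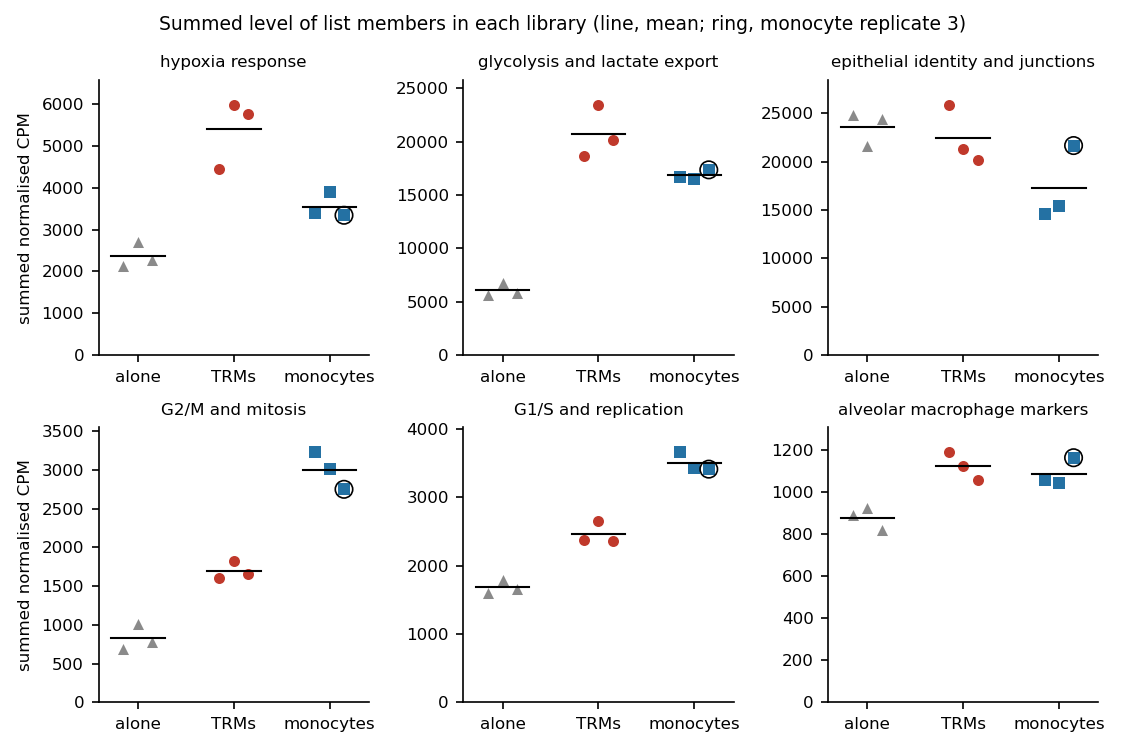
Summed normalised CPM of the members of 6 gene lists in each library, with the group mean as a line and monocyte replicate 3 ringed; each axis starts at 0. TRM sums lie above monocyte sums for hypoxia and glycolysis and below them for both cell cycle lists, while epithelial and macrophage marker sums overlap.

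Enzymes of glycolysis and glycogen followed. Pfkp, the platelet-type phosphofructokinase at the committed step of glycolysis, read 158, 258 and 207 with TRMs, 74.2, 71.5 and 80.0 with monocytes and 17.0, 13.7 and 16.2 alone. The 3 groups were apart from each other, and TRM replicate 2 was the highest library. The means of the co-cultures were 208 ± 49.96 and 75.2 ± 4.33 (SD, n = 3 each), a 2.71-fold difference (log2 1.44, SE 0.18, limma adjusted p = 0.00573). Pgm1, which moves glucose phosphate between glycolysis and glycogen, read 281, 361 and 289 with TRMs against 165, 161 and 166 with monocytes (1.88-fold, limma adjusted p = 0.0148).

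Glycogen genes were among those higher with TRMs. Gys1, the muscle-type glycogen synthase, read 163, 231 and 184 with TRMs against 111, 98.8 and 111 with monocytes (1.78-fold, limma adjusted p = 0.0363). Gbe1, the branching enzyme, read 62.1, 66.3 and 80.8 with TRMs against 17.7, 31.8 and 39.9 with monocytes (2.45-fold, limma adjusted p = 0.0432, edgeR adjusted p = 0.0523). Ppp1r3b, which brings protein phosphatase 1 to glycogen, read 16.2, 14.5 and 17.1 with TRMs against 5.22, 7.35 and 5.53 with monocytes (2.66-fold, limma adjusted p = 0.021). Tumour cells alone stood elsewhere for these genes: below both co-cultures for Gys1 (54.8, 59.8 and 69.4), overlapping the monocyte values for Gbe1 (23.4, 24.0 and 27.1) and overlapping the TRM values for Ppp1r3b (15.95, 15.6 and 17.7). Of Pfkp, Pgm1 and these 3 genes 2, 0 and 1 were called without TRM replicate 1, 2 and 3, and 2, 2 and 5 without monocyte replicate 1, 2 and 3.

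In the list of glycolysis and lactate export 1 of 23 members, Pfkp, was called higher and 0 lower in both limma and edgeR, and 11 and 0 in DESeq2, with 15 higher and 1 lower at an unadjusted p under 0.05. Of all genes tested 0.325% were called higher in limma, and 6.22% were higher and 5.44% lower at such a p. The median difference was 0.52. The difference was positive in 20 of 23 members, most of which did not pass, and in 6160 of all 12326 genes tested. Slc2a1, the glucose transporter GLUT1, read 499, 761 and 524 with TRMs against 381, 325 and 317 with monocytes (limma adjusted p = 0.0771), and Gapdh 1982, 2386 and 1951 with TRMs against 1437, 1256 and 1557 with monocytes (limma adjusted p = 0.135). Ldha, which makes lactate, read 2527, 2809 and 2418 with TRMs against 1828, 2098 and 2402 with monocytes (limma adjusted p = 0.503). The lactate exporter Slc16a3 read 61.8, 111 and 69.4 with TRMs against 99.97, 67.2 and 49.1 with monocytes, Pkm 4909, 6868 and 5719.5 with TRMs against 6016, 5996 and 5352 with monocytes, and Eno1 1544, 1846 and 1633 with TRMs against 1724, 1566 and 1582 with monocytes, so these 3 overlapped. Without monocyte replicate 3 Bsg, the chaperone of lactate transporters, and the aldolase Aldoc were called too, at log2 1.07 and 1.91 (limma adjusted p = 0.00883 and 0.0478). Without TRM replicate 2 Pfkp was at an adjusted p of 0.0509.

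**Figure D4:**
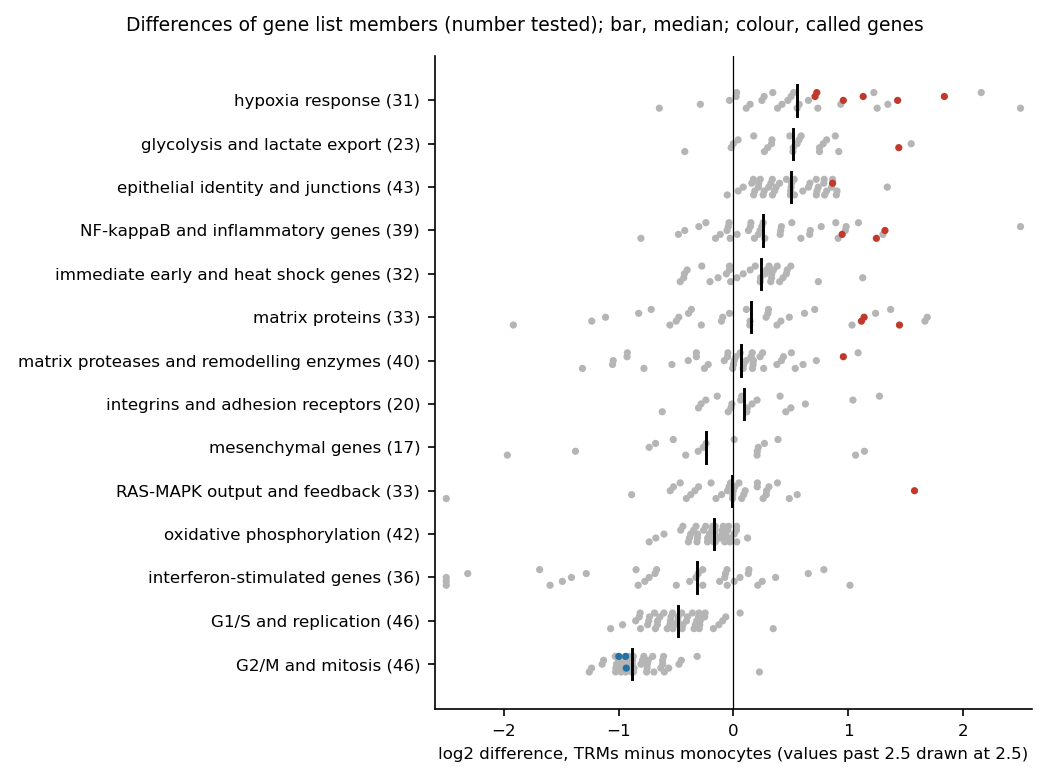
Log2 difference, TRMs minus monocytes, of each tested member of 14 gene lists, with the number tested in brackets and the median as a black bar; red and blue points were called higher and lower with TRMs. The hypoxia and glycolysis medians lie at 0.55 and 0.52 and the G2/M median at -0.88.

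Among the called genes higher with TRMs, 6 encode secreted proteins or an enzyme that makes a secreted signal, grouped here by role after they were called. Il1a (chromosome 2, 129299610 to 129309972, minus strand), the alarm cytokine interleukin-1 alpha, read 263, 238 and 223 with TRMs, 76.9, 109.8 and 106 with monocytes and 44.7, 47.8 and 41.8 alone. The 3 groups did not overlap. The means with TRMs and monocytes were 241 ± 20.6 and 97.6 ± 18.1 (SD, n = 3 each), a 2.497-fold difference with the smallest p-value of the comparison (log2 1.32, SE 0.15, limma adjusted p = 0.00573). Csf3, the granulocyte growth factor G-CSF, read 35.8, 32.9 and 29.7 with TRMs against 16.5, 11.3 and 14.1 with monocytes (2.37-fold, limma adjusted p = 0.0272), and its level alone lay between them (17.3, 22.8 and 26.3). Ptges, which makes prostaglandin E2, read 214, 197 and 165 with TRMs against 100.1, 76.9 and 126 with monocytes (1.93-fold, limma adjusted p = 0.0454, edgeR adjusted p = 0.0539).

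Among growth factors, Pgf, a placental relative of Vegfa, read 44.6, 52.96 and 47.1 with TRMs and 12.7, 14.6 and 25.6 with monocytes (2.86-fold, limma adjusted p = 0.0363), where monocyte replicate 3 was the highest of its group. Wnt7b, a WNT ligand, read 447, 368 and 325 with TRMs against 201, 151 and 239 with monocytes (1.95-fold, limma adjusted p = 0.0357). Igfbp3, which binds insulin-like growth factors outside the cell, read 690.0, 911 and 797 with TRMs against 457, 438 and 446 with monocytes (1.78-fold, limma adjusted p = 0.0363) and its monocyte values lay close together. The monocyte values of Wnt7b overlapped tumour cells alone (251, 267 and 233), and so did those of Pgf (31.8, 32.9 and 18.1).

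Of 39 members of the NF-kappaB and inflammatory list 3 were called higher (Il1a, Csf3 and Ptges) and 0 lower in limma, 2 and 0 in edgeR, 6 and 0 in DESeq2. At an unadjusted p under 0.05 (limma) they were 13 and 2, against 6.22% and 5.44% of all genes tested. The list median was 0.26. Il23a, a cytokine subunit, read 24.9, 18.4 and 19.8 with TRMs against 12.3, 7.98 and 9.61 with monocytes (limma adjusted p = 0.0577), and Lcn2, an iron-binding acute phase protein, 73.6, 57.1 and 28.8 with TRMs against 21.1, 17.5 and 21.9 with monocytes (limma adjusted p = 0.0741). Csf2, the macrophage growth factor GM-CSF, read 82.1, 90.4 and 84.9 with TRMs against 61.5, 61.7 and 69.6 with monocytes; the values did not overlap, but the difference was small (log2 0.42, limma adjusted p = 0.327). Without TRM replicate 2 the adjusted p of the 6 secreted genes above lay between 0.0509 and 0.167, and Il1a was the one of them still called without TRM replicate 1 or 3 or monocyte replicate 2.

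Receptors called higher with TRMs were Egfr, Ret, Ephb2 and Vldlr. Egfr, the receptor for EGF and its relatives, was at a low level, 11.7, 11.8 and 9.59 with TRMs and 3.05, 3.62 and 4.52 with monocytes (2.98-fold, log2 1.58, SE 0.27, limma adjusted p = 0.0283). Tumour cells alone read 9.12, 7.18 and 8.67, between the co-cultures. Ret, the receptor tyrosine kinase for GDNF-family ligands, read 104, 116 and 79.1 with TRMs against 47.2, 35.8 and 51.3 with monocytes (2.23-fold, limma adjusted p = 0.0272). Ephb2, an ephrin receptor, was 2.29-fold higher (24.3, 22.2 and 17.7 with TRMs against 7.86, 11.9 and 8.43 with monocytes, limma adjusted p = 0.0363), and tumour cells alone overlapped the TRM range (17.6, 18.9 and 19.2). Vldlr, a lipoprotein receptor, was 2.28-fold higher (57.2, 69.3 and 62.6 with TRMs against 21.2, 29.8 and 33.1 with monocytes, limma adjusted p = 0.0241). In the list of RAS-MAPK output and feedback Egfr was the 1 member of 33 called, with a list median of -0.01, and the feedback inhibitor Spry1 read 121, 73.3 and 74.2 with TRMs against 102, 96.0 and 158 with monocytes. None of the 4 receptors was called without any one of the TRM libraries or without monocyte replicate 1 or 2, and without TRM replicate 2 their adjusted p lay between 0.131 and 0.167.

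Matrix genes were among those called higher with TRMs. Lama3, which encodes a chain of laminin, a basement membrane protein, read 254, 299 and 213 with TRMs against 76.0, 121 and 87.1 with monocytes. The fold was 2.72 (limma adjusted p = 0.0363, edgeR adjusted p = 0.0502), and the level alone overlapped the monocyte range. Lamb3, another laminin chain gene, read 301, 345 and 251 with TRMs against 215, 210.2 and 159 with monocytes without overlap (log2 0.62, limma adjusted p = 0.117). Ecm1, extracellular matrix protein 1, read 1222, 1236 and 958 with TRMs and 671, 531 and 401 with monocytes (2.17-fold, limma adjusted p = 0.0241), both far above tumour cells alone (124, 158 and 127). Without monocyte replicate 3 the Ecm1 fold was 1.90. Adamtsl4, which helps place fibrillin, was 2.24-fold higher (148, 135 and 125 with TRMs against 78.1, 42.5 and 66.8 with monocytes, limma adjusted p = 0.0254). Of these genes Lama3 was not called without any one of the TRM libraries or without monocyte replicate 1 or 2, and of those 5 fits Ecm1 and Adamtsl4 were called only without monocyte replicate 1.

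Of 33 matrix proteins 3 were called higher (among them Ecm1 and Lama3) and 0 lower in limma, 1 higher in edgeR, 4 higher and 2 lower in DESeq2, and 6 higher and 5 lower at an unadjusted p under 0.05. Of all genes tested 6.22% were higher and 5.44% lower at such a p. The median of the list was 0.15. Several members had lower mean values with TRMs without passing. Sparc, a collagen-binding matrix protein, read 33.3, 44.1 and 36.3 with TRMs and 100.1, 87.5 and 61.5 with monocytes (log2 -1.11, limma adjusted p = 0.107), and it was called lower without monocyte replicate 3 (limma adjusted p = 0.0498). Col6a3, a collagen VI chain, read 2.53, 11.1 and 7.02 with TRMs against 21.6, 34.1 and 14.5 with monocytes (limma adjusted p = 0.118). Col6a1, another chain, read 273, 528 and 408 with TRMs against 737, 884 and 399 with monocytes, and Vim, the mesenchymal filament vimentin, 648, 1012 and 944 with TRMs against 1397, 1418 and 928 with monocytes, with monocyte replicate 3 inside the TRM range for both genes. Of 17 mesenchymal genes and 20 integrins and adhesion receptors 0 were called in limma or edgeR (4 in each list at an unadjusted p under 0.05, and 1 and 3 in DESeq2), and of 40 matrix proteases and remodelling enzymes 1, P4ha2, was called.

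Of the epithelial identity and junction genes 1 was called, and the count ranged from 0 to 12 when 1 library at a time was left out. Dsg2, a cadherin of desmosomes, read 103, 92.1 and 92.2 with TRMs, 50.1, 57.8 and 50.1 with monocytes and 187, 208 and 199 alone. All 3 groups were apart, with tumour cells alone highest (1.82-fold between the co-cultures, log2 0.86, SE 0.13, limma adjusted p = 0.0148). Dsg2 was not called without any one of the TRM libraries (without replicate 2, limma adjusted p = 0.0871). It was the 1 called member of 43 in limma and edgeR (DESeq2 called 8 higher and 0 lower). At an unadjusted p under 0.05 (limma), 18 members were higher and 0 lower, against 6.22% and 5.44% of all genes tested. Differences were positive in 42 of 43 members, with a median of 0.50, and in 6160 of all 12326 genes. Cdh1, E-cadherin, read 1336, 1512 and 1342 with TRMs and 683, 759 and 1164 with monocytes (log2 0.72, limma adjusted p = 0.107), where replicate 3 was the high monocyte library. Krt7, a simple epithelial keratin, read 2925, 2096 and 2182 with TRMs against 1132, 961 and 2077 with monocytes (limma adjusted p = 0.149), and Epcam, an epithelial adhesion molecule, 822, 501 and 583 with TRMs against 351, 277 and 531 with monocytes (limma adjusted p = 0.196).

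Without monocyte replicate 3 the called epithelial members rose to 12, with a median of 0.69. Cdh1 was then at log2 0.95 (limma adjusted p = 0.0111), Krt7 at 1.19 (0.0109), Epcam at 0.99 (0.0385) and the tight junction gene Ocln at 1.02 (0.0207). The epithelial transcription factors Grhl2 and Ovol1 were called as well, at folds of 2.07 and 4.25 (limma adjusted p = 0.0127 and 0.0109). The remaining 5 were Dsp, Esrp1, Krt19, Pkp3 and Cldn7. Summed over the list, the level was 25861, 21289 and 20136 with TRMs and 14624, 15408 and 21670.5 with monocytes, and monocyte replicate 3 lay within the TRM range. Tumour cells alone were at 24778, 21639 and 24399.

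**Figure D5:**
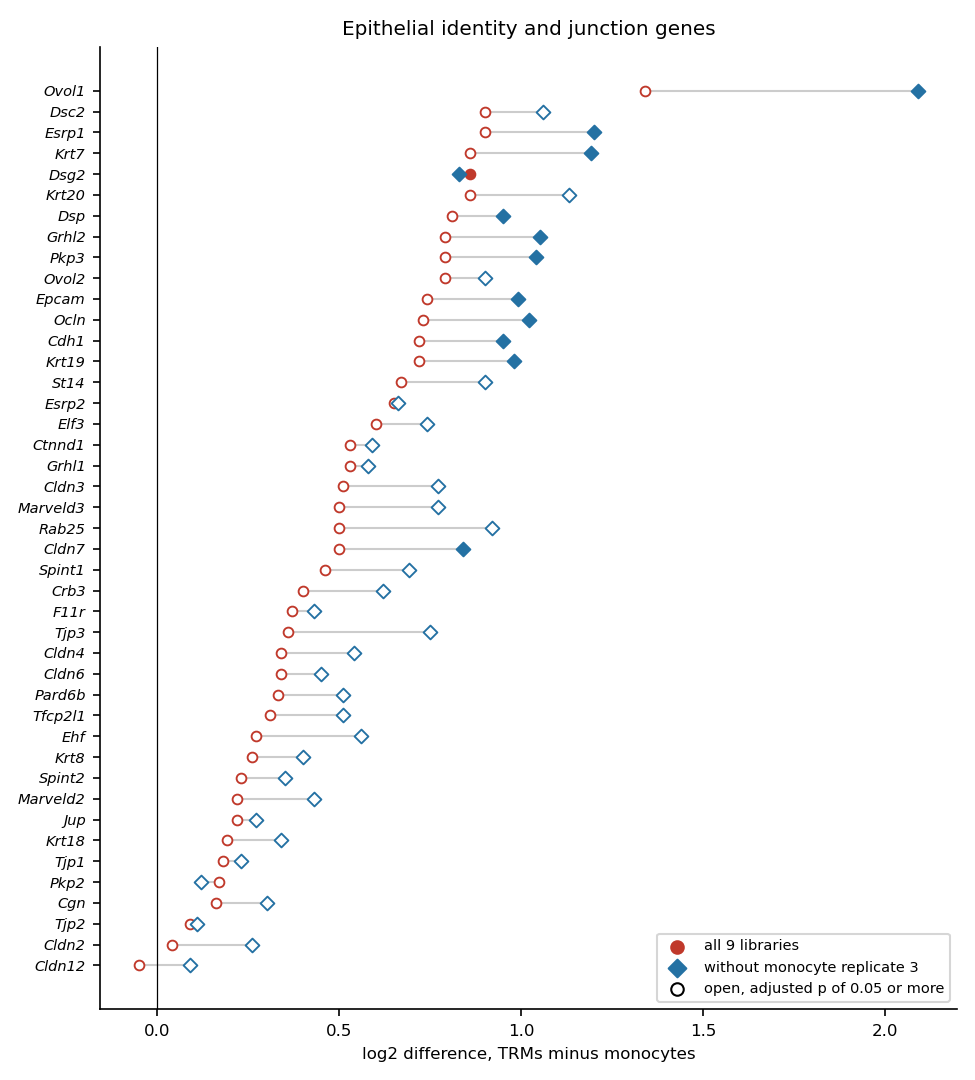
Log2 difference, TRMs minus monocytes, of 43 epithelial identity and junction genes with all 9 libraries (red circles) and without monocyte replicate 3 (blue diamonds); filled symbols have an adjusted p under 0.05. Filled circles number 1 and filled diamonds 12.

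The other genes higher with TRMs had varied roles. Kctd11, an adaptor of a ubiquitin ligase that opposes Hedgehog signalling, read 99.3, 123 and 109 with TRMs against 46.7, 44.2 and 28.8 with monocytes (2.81-fold, limma adjusted p = 0.00573), above tumour cells alone (18.8, 19.0 and 20.0). Without monocyte replicate 3, the lowest of its group, the Kctd11 fold was 2.42. Ass1, the arginine-making enzyme argininosuccinate synthase, read 48.0, 35.8 and 30.0 with TRMs against 9.86, 12.96 and 15.8 with monocytes (2.94-fold, limma adjusted p = 0.0241), and the monocyte values overlapped those alone (16.4, 9.85 and 12.1). Unc13a, a vesicle priming protein best known from synapses, read 19.4, 27.3 and 19.4 with TRMs against 7.05, 9.28 and 6.42 with monocytes (2.90-fold, limma adjusted p = 0.0306).

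Proteins of the cytoskeleton and membrane traffic were also in this group. The septin Sept5 and the myosin Myo3b were 2.53-fold and 2.52-fold higher with TRMs (limma adjusted p = 0.0363 and 0.0207). Without monocyte replicate 3 these folds were 2.08 and 3.04. Cyth4, an exchange factor for ARF proteins, was 2.26-fold higher (48.5, 41.8 and 29.7 with TRMs against 17.8, 15.3 and 19.2 with monocytes) and the class I myosin Myo1d 1.62-fold. Trim29 was 2.03-fold higher, the Myc antagonist Mxd1 1.89-fold and Ppp2r2c, a regulatory subunit of protein phosphatase 2A, 2.00-fold. Tent5b (a poly(A) polymerase of the TENT5 family), Adssl1 (an enzyme of AMP synthesis), Slc4a4 (a sodium bicarbonate transporter) and Plekhg3 (an exchange factor for small GTPases) were 2.39-fold, 1.76-fold, 1.66-fold and 1.66-fold higher. Over the 14 genes of this group the adjusted p lay between 0.00573 and 0.0473. Ppp2r2c, Plekhg3 and Myo1d were not called by edgeR (adjusted p = 0.0502, 0.0522 and 0.0501). Without monocyte replicate 3 Adssl1, Plekhg3 and Myo1d were not called either (limma adjusted p = 0.0636, 0.0646 and 0.0513). Of the 14 genes 1, 0 and 1 were called without TRM replicate 1, 2 and 3. Without monocyte replicate 1, 2 and 3 the counts were 2, 1 and 11.

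The 5 called mitotic genes were higher with monocytes. Kif11 (chromosome 19, 37376403 to 37421859, plus strand), the kinesin that separates the spindle poles, read 33.7, 41.1 and 37.8 with TRMs and 72.5, 83.8 and 68.5 with monocytes. Tumour cells alone read 20.9, 26.7 and 24.5, below both. The means were 37.5 ± 3.71 and 74.9 ± 7.96 (SD, n = 3 each), 2.00-fold lower with TRMs (SE 0.16 on the log2 scale, limma adjusted p = 0.0241). Cdc20, which activates the anaphase-promoting complex, read 48.7, 64.4 and 48.7 with TRMs and 113, 96.6 and 98.5 with monocytes (1.92-fold lower, limma adjusted p = 0.0363).

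Aurka, the Aurora A kinase of the spindle poles, read 32.7, 35.3 and 28.2 with TRMs and 66.9, 52.8 and 64.0 with monocytes (1.91-fold lower, limma adjusted p = 0.0441). Ncapg, a condensin subunit that compacts chromosomes, read 19.0, 22.01 and 19.9 with TRMs against 42.7, 42.6 and 37.4 with monocytes (2.01-fold lower, limma adjusted p = 0.0363), and Pbk, a mitotic kinase, 27.2, 24.7 and 23.3 with TRMs against 48.4, 48.1 and 43.0 with monocytes (1.86-fold lower, limma adjusted p = 0.0444). For all 5 the order was the same, with tumour cells alone lowest, TRM libraries in the middle and monocyte libraries highest, and no 2 groups overlapped. Without TRM replicate 2 their adjusted p lay between 0.0871 and 0.167, and none was called without TRM replicate 1 or 3 or monocyte replicate 1 or 2. Without monocyte replicate 3 Aurka was not called (limma adjusted p = 0.0548).

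Of 46 G2/M and mitosis genes 3 were called lower with TRMs (Kif11, Cdc20 and Aurka) and 0 higher in both limma and edgeR. At an unadjusted p under 0.05, 41 were lower and 0 higher, and in 41 of 46 the 3 TRM values lay below the 3 monocyte values. Over all genes tested the shares were 5.44% lower and 6.22% higher at such a p, and 8.62% with TRM values below the monocyte values. The median difference was -0.88. Cdk1, the mitotic kinase, read 61.5, 68.5 and 67.9 with TRMs and 97.8, 95.9 and 114 with monocytes (limma adjusted p = 0.0843). Top2a, which untangles DNA, read 82.7, 82.7 and 93.0 with TRMs against 167, 155 and 119 with monocytes (limma adjusted p = 0.0583), and Mki67, the Ki-67 antigen, 45.5, 41.2 and 39.6 with TRMs against 142, 81.2 and 51.6 with monocytes (limma adjusted p = 0.158), with monocyte replicate 3 nearest to the TRM values. Without that library Kif11, Cdc20, Top2a, Mki67, Kif23 and Espl1 were called lower (limma adjusted p between 0.0152 and 0.0483). Of the list 0 members were called without any one of the TRM libraries or without monocyte replicate 1 or 2, and 1, 12 and 1 without replicate 1, 2 and 3 of tumour cells alone. DESeq2 on the recovered reads called 28 members lower.

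The list sum for G2/M and mitosis was 1607, 1823 and 1656 with TRMs, 3226, 3006 and 2748 with monocytes and 692, 1011 and 783 alone. For the 46 G1/S and replication genes it was 2382, 2659 and 2354 with TRMs, 3659, 3433 and 3412 with monocytes and 1607, 1784 and 1656 alone. The groups did not overlap in either sum. Of the G1/S members 0 were called in limma or edgeR and 13 in DESeq2. At an unadjusted p under 0.05 (limma), 26 were lower and 0 higher, against 5.44% and 6.22% of all genes tested. The median was -0.48. Rfc5, a subunit of the clamp loader of replication, read 59.7, 68.3 and 63.7 with TRMs against 104, 102 and 96.5 with monocytes (log2 -0.66, limma adjusted p = 0.0519), and the helicase subunit Mcm5 96.6, 112 and 71.6 with TRMs against 174, 157 and 152 with monocytes (limma adjusted p = 0.0613). Rfc5 was called without monocyte replicate 3 (limma adjusted p = 0.0478).

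The 4 remaining genes higher with monocytes were not mitotic. Sod3 (chromosome 5, 52363791 to 52371418, plus strand), the secreted superoxide dismutase, had the largest fold of the called genes, with 14.5, 15.2 and 9.39 in the TRM libraries, 72.2, 73.8 and 46.2 in the monocyte libraries and 3.59, 7.95 and 4.46 alone. It was 4.91-fold lower with TRMs (13.1 ± 3.20 against 64.1 ± 15.5, SD, n = 3 each, log2 -2.30, SE 0.31, limma adjusted p = 0.00846). Ptgs1, the cyclooxygenase COX-1, read 27.0, 34.9 and 42.6 with TRMs against 107, 143 and 84.96 with monocytes (3.18-fold lower, limma adjusted p = 0.0148). Naaa, a lysosomal amidase of fatty acid ethanolamides, read 22.4, 28.02 and 23.1 with TRMs against 80.6, 86.9 and 47.3 with monocytes (2.84-fold lower, limma adjusted p = 0.0232).

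For Sod3, Ptgs1 and Naaa monocyte replicate 3 was the lowest monocyte library, and without it the folds were 5.72, 3.61 and 3.43 (limma adjusted p = 0.00684, 0.00765 and 0.00661). The TRM values of Ptgs1 and Naaa overlapped tumour cells alone (17.0, 31.1 and 23.1 for Ptgs1, 19.2, 30.4 and 21.2 for Naaa). Sytl2, which tethers secretory vesicles, read 49.4, 52.4 and 55.6 with TRMs against 81.9, 140.1 and 91.4 with monocytes (1.94-fold lower, limma adjusted p = 0.0454), and its monocyte values overlapped those alone (114, 89.6 and 99.3). Without TRM replicate 2 the adjusted p of these 4 genes lay between 0.0509 and 0.167, and Naaa and Sytl2 were not called without TRM replicate 1 or 3 or monocyte replicate 1 or 2. Ptgs1 was not called without TRM replicate 1 or monocyte replicate 1 or 2, nor Sod3 without TRM replicate 3 or monocyte replicate 2.

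Set against tumour cells alone, the 40 genes higher with TRMs fell into several patterns. For 16 of them, among them Egln1, Pfkp, Il1a and Ecm1, the level alone lay below both co-cultures. For 15, among them Ero1l, Vegfa, Lama3 and Wnt7b, it overlapped the monocyte values. For 3 (Ppp1r3b, Tent5b and Ephb2) it overlapped the TRM values, for 3 (Egfr, Csf3 and Plekhg3) it lay between the co-cultures, and for 3 (Dsg2, Slc4a4 and Myo1d) above both. Of the 9 genes lower with TRMs, 6 had the level alone below both co-cultures, 2 overlapped the TRM values and 1 the monocyte values.

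No marker of the added cells was called between the co-cultures in limma or edgeR. Both groups had added cells, so this comparison cannot show how much of their RNA was present. Of 25 alveolar macrophage markers 17 were tested and 0 were called (5 higher and 1 lower at an unadjusted p under 0.05, 2 and 1 in DESeq2), and their summed level was 1189, 1122 and 1057 with TRMs and 1059, 1042 and 1163 with monocytes. Most of that sum was Cd9, a tetraspanin also made by epithelial cells (871, 880.4 and 838 with TRMs against 887, 847 and 967 with monocytes). Mrc1, the macrophage mannose receptor, read 22.4, 39.8 and 36.5 with TRMs against 34.6, 47.8 and 35.2 with monocytes, and the macrophage gene Gpnmb 3.60, 1.09 and 2.14 with TRMs against 9.70, 11.6 and 8.90 with monocytes (limma adjusted p = 0.0771). Of 31 monocyte markers 12 were tested and 0 were called, also in DESeq2 (1 higher at an unadjusted p under 0.05), with sums of 332, 164 and 212 with TRMs and 173, 156 and 259.7 with monocytes. In tumour cells alone the sums were 893, 924 and 820 for the alveolar macrophage markers and 285, 189 and 276 for the monocyte markers.

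F13a1, a coagulation factor subunit made by monocytes, read 9.67, 17.3 and 13.1 with TRMs and 17.0, 15.98 and 7.21 with monocytes, against 0.825, 0.747 and 1.31 alone. Csf1r, the receptor for the macrophage growth factor, read 6.73, 5.33 and 5.68 with TRMs against 2.95, 3.54 and 3.64 with monocytes (limma adjusted p = 0.372). Of 18 pan-leukocyte markers 9 were tested and 0 called, also in DESeq2 (1 higher at an unadjusted p under 0.05), with sums of 94.5, 81.0 and 81.9 with TRMs and 40.3, 61.2 and 87.1 with monocytes, of which Cd53 made up most. In tumour cells alone the pan-leukocyte sums were lower than in every TRM library, at 45.4, 44.4 and 46.0. Ptprc had 0 reads in monocyte replicate 3 and read 4.47, 0.501 and 0.875 in the TRM libraries. Marco and Adgre1 were not analysed here. Macrophages themselves express Ptgs1, Naaa and Cyth4, as background. The part of RNA from the added cells in the called genes was not tested.

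Programmes outside these groups held few or no calls. In limma and edgeR 0 of 36 interferon-stimulated genes were called (1 higher and 8 lower at an unadjusted p under 0.05, 1 and 1 in DESeq2, median -0.32), and Bst2, an antiviral membrane protein, read 13.98, 12.6 and 12.8 with TRMs and 29.4, 20.3 and 21.2 with monocytes (limma adjusted p = 0.135). Of 42 oxidative phosphorylation genes 0 were called (0 higher and 6 lower at an unadjusted p under 0.05, 0 and 1 in DESeq2, median -0.17). Their sum was 6275 in monocyte replicate 3 against 4709 to 5367 in the other co-culture libraries. Without monocyte replicate 3 the median was -0.06. Immediate early and heat shock genes, which can respond to how cells are dissociated, held 0 calls among 32 (8 higher and 1 lower at an unadjusted p under 0.05, 2 and 1 in DESeq2, median 0.24), and Hspa1b, an HSP70 gene, read 125, 122 and 87.1 with TRMs against 59.4, 59.2 and 81.2 with monocytes (limma adjusted p = 0.0823). It was called without monocyte replicate 3 (limma adjusted p = 0.032). Mitochondrial transcripts took 0.316% to 0.622% of reads with TRMs and 0.288% to 0.58% with monocytes, so the ranges overlapped. The 40 cytosolic ribosomal protein genes, with 0 called, summed to 9599 in monocyte replicate 3 against 6074 to 7925 in the other co-culture libraries. Their median was -0.21, and 0.03 without monocyte replicate 3. In the ATF4 and amino acid list 2 of 30 were called higher, Ass1 and Vldlr, with a median of -0.02. Cd274, the checkpoint ligand PD-L1, read 7.54, 10.4 and 7.96 with TRMs against 10.5, 5.59 and 3.26 with monocytes, and Tgfb1 102, 135 and 105 with TRMs against 135, 96.6 and 66.7 with monocytes, both overlapping.

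Some called genes share sequence with others. Exons of 13 of the 49 overlap a gene on the opposite strand, among them Il1a, Pfkp, Pgm1, Gys1, Cdc20, Ncapg and Ptgs1. The library kit is not stated to keep strand, so reads inside an overlap cannot be assigned to either of the 2 genes. The length of the overlaps was not measured. Sept5 shares exons with Gp1bb on the same strand, and 11 called genes share a stretch of 50 bases with other annotated genes. The smallest number of reads of a called gene in 1 library was 56.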

How the data were processed

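RNA of GFP-sorted tumour cells was sequenced after low-input Smart-Seq cDNA synthesis in 9 libraries, 3 of each group, with groups taken from the labels. The deposited values are a normalised signal (CPM): as their steps show, the authors added 0.5 read to each gene's reads and divided by a scaled library size. Alignment with STAR (version 2.5) to mm10 and edgeR are named in the submitters' processing notes. How reads were counted, and on which gene models, is not given in the sources used here. Whole reads were recovered from the steps between values, and all 111051 values (100%) came out whole within 1e-06 read.

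Log2 of the deposited values was fitted with limma 3.58.1 (R 4.3.3, empirical Bayes with trend) on all 9 libraries, with Benjamini-Hochberg adjustment over 12326 genes. The filter, at least 10 reads in enough libraries and 15 in total, removed 13 genes. edgeR 4.0.16 (34 higher, 10 lower) and DESeq2 1.42.0 were run on the recovered reads as alternatives, besides limma-voom, another pseudocount, other filters, scaling by library totals, the 6 co-culture libraries alone, a replicate block and each library left out in turn. The fits were tested on simulated data. Depth was 16001895 to 32771448 reads per library.

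Genes were to be named by the 12 largest folds and 12 smallest p-values in each direction, up to 5 members of each of 38 lists, and a fixed set of markers. The remaining 17 called genes (among them Ret, Wnt7b, Gys1 and Gbe1), and Col6a3, Eno1, Ndrg1, Pkm, Cd9 and list members called without monocyte replicate 3, were named after their values were seen. The groups compared, the lists and the motifs were chosen with earlier results of these data known. Some items are not reported here, and 1 called gene is left out of the plot of called genes.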

Additional observations from a re-analysis of the deposited data

How the results depend on the processing

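All 49 called genes kept their sign under every alternative run, but how many were called varied widely. Against 40 higher and 9 lower, DESeq2 on the recovered reads called 194 and 135, limma-voom 57 and 29, a pseudocount of 1 CPM 56 and 19, scaling by library totals 35 and 16, and the 6 co-culture libraries alone 32 and 17. Leaving out 1 library at a time gave 0 to 106 higher and 0 to 38 lower, with the lowest counts without TRM replicate 2. A mean of at least 1 CPM gave 40 and 11, no filter 40 and 9, and edgeR 34 and 10. The cause of these shifts was not tested.

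Same-numbered TRM and monocyte libraries had correlations of deviations of 0.173, 0.0389 and 0.209, and differently numbered ones of -0.229 to 0.0573. Of the 6 libraries 5 correlated best with their own number. The labels do not say whether same-numbered libraries were made together, and this was not tested. With a replicate block the calls were 61 higher and 18 lower over all 9 libraries (47 of the 49 among them), and 17 and 7 over the 6 co-culture libraries (19 of the 49).

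There are 3 libraries a group, and monocyte replicates 3 and 1 stood apart on the first and second principal component. TRM replicate 2 and monocyte replicate 2 correlated at 0.973. Pairs within a group correlated at 0.940 to 0.974 with TRMs and at 0.908 to 0.953 with monocytes. Called genes had at least 56 reads in each library.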

Other observations

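Monocyte replicate 3 differed from the other 5 co-culture libraries in genes outside the lists, named here after their values were seen. Sptssb, a small subunit of the enzyme that starts sphingolipid synthesis, read 44.7 there against 3.15 to 12.4 in the other 5, and 83.9, 31.1 and 87.2 in tumour cells alone. Cldn8, a claudin of tight junctions, read 26.8 against 4.01 to 17.6, and 70.2, 53.9 and 63.0 alone. The aldo-keto reductase Akr1c19 read 26.3 against 5.16 to 11.04, and 72.0, 61.3 and 63.9 alone. For Cldn8 and Akr1c19 the library lay between the other co-culture libraries and tumour cells alone, and for Sptssb within the range of tumour cells alone. Some genes high in that library lay above tumour cells alone as well. Atp5e read 48.7 there against 11.6 to 22.2 in the other 5, and 20.2, 27.3 and 18.7 alone. Rpl39 read 29.8 against 3.11 to 15.2, and 6.31, 16.5 and 10.4 alone.

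Other genes were lower in that library. Fas, the death receptor, read 3.55 against 12.04 to 18.8, with 4.48, 10.2 and 5.12 alone. C3, the central complement component, read 15.5 against 51.0 to 93.9, with 54.7, 30.8 and 56.6 alone. Pde1b, a calmodulin-dependent phosphodiesterase, read 22.5 against 35.9 to 96.1, with 13.2, 16.6 and 15.01 alone, and Birc3, an NF-kappaB target that inhibits apoptosis, 12.01 against 24.6 to 38.8, with 18.7, 11.6 and 21.5 alone. These are values of 1 library, with no test.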
